A study of Oryza sativa with 12 samples.

Results

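Hexokinase genes of rice (Oryza sativa) were followed in cultured suspension cells that had been moved to medium lacking sucrose. They were taken as every gene whose symbol or synonym in a RefSeq gene table is HXK followed by a number, with or without the prefix Os. The rule found 10 genes, of which 8 had at least 1 probe on the array, among 15798 genes measured. The rule uses names and no measured value, but the family was taken up with earlier results of these data known. A number does not point to 1 gene in that table: each of HXK2 to HXK8 is borne by 2 genes, and HXK1, HXK9 and HXK10 by 1 each. The genes are therefore called by all of their numbers. The measured ones were HXK6/HXK7 (LOC4338010), HXK2/HXK3 (LOC4339420), HXK2/HXK6 (LOC4326547), HXK4 (LOC4342654), HXK5 (LOC4339361), HXK5/HXK9 (LOC4324666), HXK4/HXK8 (LOC4326776) and HXK3/HXK8 (LOC4326516). HXK3/HXK8 had 2 probes and the other 7 genes 1 each. HXK1 and HXK7/HXK10 were not measured here.

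Hexokinases transfer a phosphate from ATP to glucose or fructose, the step by which free hexose enters glycolysis and the making of starch and cell wall. Some plant hexokinases also act as glucose sensors, which repress genes while sugar is plentiful. In rice, sensing has been ascribed to proteins published as OsHXK5 and OsHXK6, and a place in the plastid to one published as OsHXK4. Those numbers each belong to a pair of genes in the table used, so no such role is tied to a gene below.

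Each of the 12 arrays compared messenger RNA of cells without sucrose, labelled with Cy5, with that of control cells, labelled with Cy3. There were 4 groups of 3 arrays. In 3 groups, cells had spent 12, 24 or 48 h in Murashige and Skoog medium without sucrose and the control cells the same time in that medium with 3% sucrose. In the other group, cells had spent 12 h without sucrose and the control cells 12 h without sucrose in 88 mM sorbitol, which the design text gives as the control for osmotic stress. The control cells thus lacked sucrose in the sorbitol set as well. The labels name neither a cultivar nor a cell line. They leave unsaid whether replicates were grown apart, and the p-values below then speak of array-to-array spread, possibly a technical one. No array had its dyes exchanged, so a dye effect of a probe was not cancelled.

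All values are on the log2 scale and divide the signal of sucrose-free cells by that of their control cells, so 0 means no difference and 1 means 2-fold higher without sucrose. Group values are the mean ± SD of 3 arrays. Adjusted p-values come from 1 limma fit over all 12 arrays and all features (genes, and probes without a gene), and a gene was called when its adjusted p was under 0.05. As ratios carry no level, how much of each hexokinase messenger the cells held, and whether it stood above background, is unknown, and no gene is set against another in level. In bulk RNA, fewer cells of a kind cannot be told apart from less RNA per cell. The direction of the ratios was checked on alpha-amylase genes known to be induced by sugar loss in rice suspension cells. RAmy3E averaged 2.93, 3.17 and 4.74 at 12, 24 and 48 h over sucrose, RAmy3D averaged 2.34, 2.11 and 2.62, and both were above 0 on 9 of 9 arrays. Of 4 glutelin genes (seed storage) and 2 light-harvesting genes (photosynthesis), taken as marks of other cell types, none was called in any group where it could be tested. The SD of all log2 ratios ran from 0.64 to 1.26 on the sucrose arrays and from 0.30 to 0.38 on the sorbitol arrays. At 48 h, replicate 2 had the widest SD and 13.6% blank values, against 2.41% blank over the whole table.

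HXK6/HXK7 was the hexokinase gene with the largest rise without sucrose at each time. At 12 h its log2 ratios over sucrose were 3.31, 2.45 and 3.18, at 24 h they were 2.89, 2.51 and 3.08, and at 48 h they were 3.09, 2.44 and 2.07. All 9 arrays lay above 2, the lowest being 48 h replicate 3. Over sorbitol the ratios were 0.30, 0.24 and 0.00, with the dyes laid the same way. Every sucrose array stood above every sorbitol array. Such groups without overlap were found for 30.7%, 28.2% and 37.6% of all features when the 12, 24 and 48 h arrays were each set against the sorbitol arrays.

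**Figure D1:**
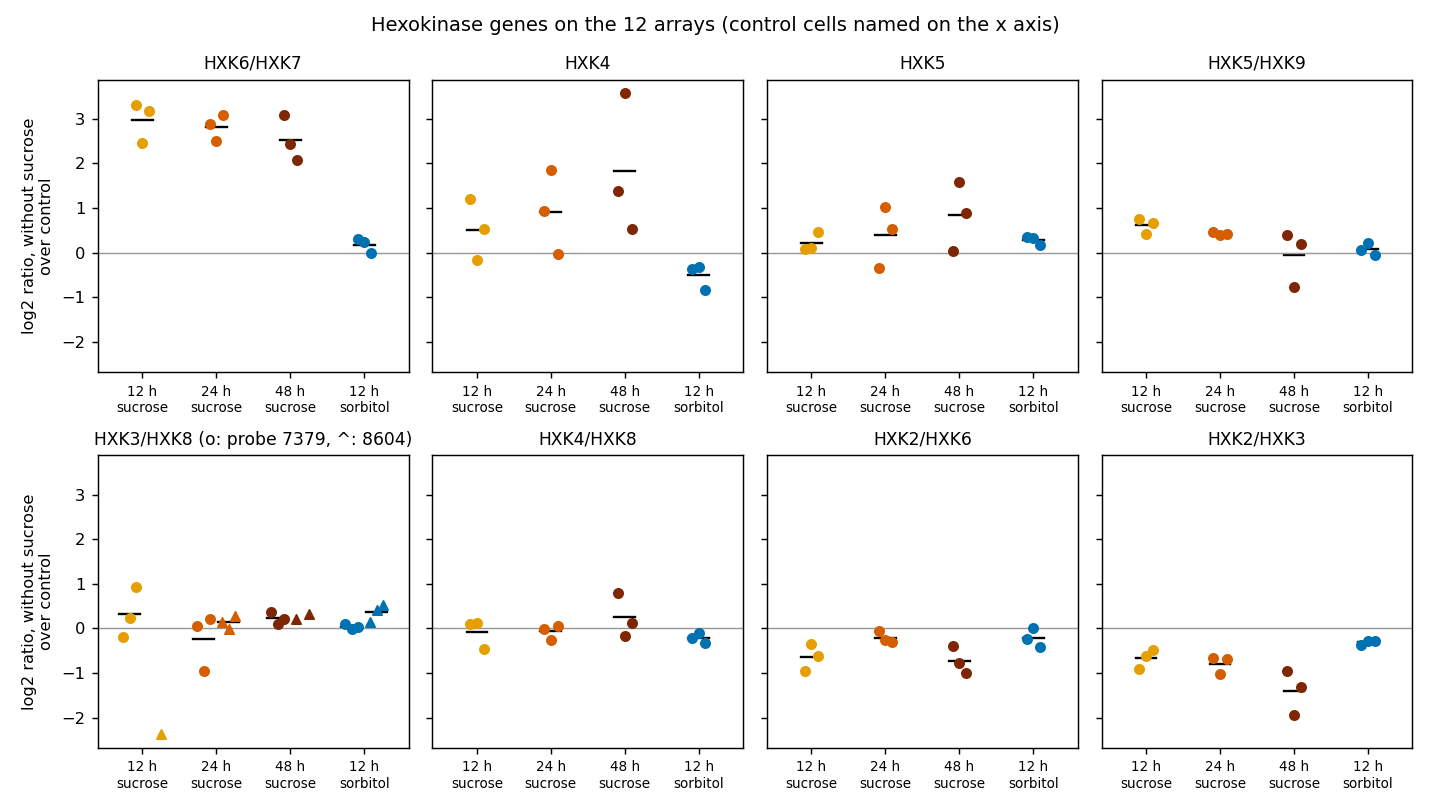
Log2 ratio of cells without sucrose over control cells (y axis) for the 8 measured hexokinase genes, in the 4 groups named on the x axis by time and control medium. Each point is 1 array and black lines are means of 3 arrays; HXK3/HXK8 has 2 probes, drawn with different marks. HXK6/HXK7 lies between 2.07 and 3.31 on the 9 sucrose arrays and between 0.00 and 0.30 on the sorbitol arrays, and HXK2/HXK3 is below 0 on all 12.

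The mean of HXK6/HXK7 over sucrose was 2.98 ± 0.46 at 12 h, which is 7.88-fold (95% interval of the log2 mean 2.49 to 3.47, adjusted p = 9.98e-05). It was 2.83 ± 0.29 at 24 h, or 7.11-fold (adjusted p = 4.94e-05), and 2.53 ± 0.52 at 48 h, or 5.79-fold (adjusted p = 3.09e-05). Ranked by the mean, the gene stood 25th of 18071 features from the top at 12 h, 73rd of 18938 at 24 h and 187th of 16506 at 48 h. Ranked by p-value, it stood 2nd, 8th and 39th. On single sucrose arrays it lay between the 96.2nd percentile (48 h replicate 2) and the 99.9th (24 h replicate 3). Over sorbitol its mean was 0.18 ± 0.16, with a 95% interval of -0.30 to 0.66 (adjusted p = 0.948).

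The 3 time points of HXK6/HXK7 did not differ beyond their spread. The difference of 24 minus 12 h was -0.15 (95% interval -0.84 to 0.54, adjusted p = 0.995), that of 48 minus 24 h was -0.29 (-0.99 to 0.40, adjusted p = 0.999), and that of 48 minus 12 h was -0.44 (-1.14 to 0.26, adjusted p = 0.678). The last interval leaves room for a fall of up to 1.14 log2 units between 12 and 48 h. With quantile normalization the 48 minus 12 h value was -0.94, and with an array left out it ran from -0.72 to -0.21. In order of mean, 12, 24 and 48 h over sucrose thus formed a run of neighbours that were not separated, and the sorbitol group came last, apart from all of them.

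The 12 h mean over sucrose exceeded the 12 h mean over sorbitol by 2.80 for HXK6/HXK7 (95% interval 2.11 to 3.49, adjusted p = 0.00288). At 24 h the excess over the sorbitol group was 2.65 (adjusted p = 0.00378) and at 48 h it was 2.35 (adjusted p = 0.00241), beside 1.2% and 4.58% of features called. The sorbitol cells had spent only 12 h in their medium. The exact two-sided permutation test of the 12 h arrays gave p = 0.1, the smallest that 3 against 3 allows. Groups of 3 without overlap always give it, and 30.7% of all features had none in this comparison. HXK5/HXK9, HXK2/HXK3 and HXK4 had the same p. All 3 differences of HXK6/HXK7 missed the threshold when limma's trended, robust spread was used, with adjusted p of 0.0521, 0.0992 and 0.0547. Of 7 hexokinase genes tested at 12 h, 1 was called higher in this comparison and none lower, beside 1.47% of all 18061 features called in either direction. For the other 6, adjusted p was 0.437 or more.

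HXK2/HXK3 moved the other way. Its log2 ratios over sucrose were -0.91, -0.62 and -0.50 at 12 h, -0.67, -1.02 and -0.68 at 24 h, and -0.96, -1.95 and -1.31 at 48 h. It was below 0 on 9 of 9 sucrose arrays and also on the 3 sorbitol arrays, with -0.37, -0.28 and -0.28. The means over sucrose were -0.67 ± 0.21 (1.60-fold lower, adjusted p = 0.0475), -0.79 ± 0.20 (1.73-fold lower, adjusted p = 0.0249) and -1.41 ± 0.50 (2.65-fold lower, adjusted p = 0.000455). The fall at 48 h passed the test under each of the 24 other settings tried. At 24 h the call was lost without 24 h replicate 1 (adjusted p = 0.0839) or replicate 2 (adjusted p = 0.183). At 12 h it was lost when any 1 of 9 arrays was left out, and kept without 24 h replicate 3, 48 h replicate 1 or 48 h replicate 2. Over sorbitol the mean was -0.31 ± 0.05 (adjusted p = 0.845), and with the spread taken from the sorbitol arrays alone the adjusted p was 0.0123.

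The 48 h mean of HXK2/HXK3 over sucrose was lower than the sorbitol mean by a difference of -1.10 (adjusted p = 0.0427). That call was lost without any 1 of the 3 sorbitol arrays, 12 h replicate 2, 24 h replicate 1 or 48 h replicate 2, where the difference lay between -1.13 and -0.83. It was also lost with scale normalization (-0.56, adjusted p = 0.166), quantile normalization (-0.49, adjusted p = 0.244), the trended spread (adjusted p = 0.117) or only the compared arrays (adjusted p = 0.0615). Between times the differences were -0.73 for 48 minus 12 h (adjusted p = 0.417) and -0.62 for 48 minus 24 h (adjusted p = 0.999). The 48 h arrays lay below the 12 h arrays without overlap, and 11.1% of all features had no overlap in that comparison, in either direction.

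HXK2/HXK6 was also below 0 on 9 of 9 sucrose arrays, by less. Its ratios were -0.95, -0.36 and -0.62 at 12 h, -0.05, -0.25 and -0.32 at 24 h, and -0.40, -0.79 and -0.998 at 48 h. Over sorbitol they were -0.25, 0.01 and -0.42, which overlaps with every sucrose group. The 12 h mean of -0.64 ± 0.30 (1.56-fold lower, adjusted p = 0.0444) and the 48 h mean of -0.73 ± 0.31 (1.66-fold lower, adjusted p = 0.0133) were called. The 24 h mean of -0.21 ± 0.14 was not (adjusted p = 0.498). The 12 h call was lost when any 1 of 8 arrays was left out, and kept without 24 h replicate 3 or any 1 of the 48 h arrays. The 48 h call was lost without 48 h replicate 2 (adjusted p = 0.0776) or replicate 3 (adjusted p = 0.0740).

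HXK4 was called higher at 48 h, on arrays that differed widely. Its log2 ratios over sucrose were 1.21, -0.17 and 0.52 at 12 h, 0.94, 1.86 and -0.04 at 24 h, and 1.39, 3.58 and 0.54 at 48 h. Over sorbitol all 3 were below 0, at -0.37, -0.33 and -0.83, and below every sucrose array. At 12, 24 and 48 h, 30.7%, 28.2% and 37.6% of all features likewise had no overlap with the sorbitol arrays, in either direction. The 48 h mean was 1.84 ± 1.57, or 3.57-fold (adjusted p = 0.0152). Without 48 h replicate 2, the array with the widest SD and the most blanks, it was 0.97 (adjusted p = 0.181). The 12 h mean of 0.52 ± 0.69 (adjusted p = 0.546) and the 24 h mean of 0.92 ± 0.95 (adjusted p = 0.245) were not called. The 48 h mean exceeded the sorbitol mean by 2.35 (95% interval 0.88 to 3.81), and that difference was not called (adjusted p = 0.0687). Without 48 h replicate 2 it was 1.48 (adjusted p = 0.229), and it passed without 48 h replicate 3 (3.00, adjusted p = 0.0185), with array weights (1.75, adjusted p = 0.0220), and with scale (2.03, adjusted p = 0.00959) or quantile normalization (2.27, adjusted p = 0.00390).

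HXK5 was called higher at 48 h, just inside the threshold. Its ratios were 0.09, 0.10 and 0.47 at 12 h, -0.34, 1.03 and 0.53 at 24 h, and 0.03, 1.58 and 0.90 at 48 h over sucrose, and 0.35, 0.33 and 0.17 over sorbitol. The sorbitol arrays lay within the range of the 24 and 48 h arrays. The 48 h mean was 0.84 ± 0.78, or 1.79-fold (adjusted p = 0.0482). It lost the call in 18 of 24 other settings. It kept it in 3 of 12 fits with an array left out, those without 24 h replicate 1, 24 h replicate 2 or 48 h replicate 1, and without 48 h replicate 2 it was 0.46 (adjusted p = 0.376). The means at 12 h (0.22 ± 0.22, adjusted p = 0.684) and 24 h (0.41 ± 0.70, adjusted p = 0.394) were not called.

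The remaining 3 measured genes had no call over sucrose. HXK5/HXK9 had 0.76, 0.43 and 0.66 at 12 h, 0.46, 0.39 and 0.42 at 24 h, and 0.40, -0.76 and 0.18 at 48 h, against 0.07, 0.22 and -0.04 over sorbitol. Its 12 and 24 h arrays were all above 0, with means of 0.61 ± 0.17 (adjusted p = 0.0839) and 0.42 ± 0.04 (adjusted p = 0.211). Its 48 h mean was -0.06 ± 0.62, and the difference of 48 minus 12 h was -0.67 (95% interval -1.31 to -0.03, adjusted p = 0.478). Without 48 h replicate 2 the 12 h mean of HXK5/HXK9 was called (adjusted p = 0.0224).

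HXK4/HXK8 stayed near 0, with means of -0.08 ± 0.34 at 12 h, -0.07 ± 0.17 at 24 h and 0.25 ± 0.50 at 48 h over sucrose and -0.22 ± 0.11 over sorbitol. Its 95% intervals over sucrose reached from -0.51 to 0.69 in all, and a change of 2-fold would lie outside them. Those intervals use the spread shared by all 12 arrays, the sorbitol arrays included. At 48 h the 3 arrays gave 0.80, -0.17 and 0.11, so a 2-fold change there is not excluded. HXK3/HXK8 could be tested at 24 h (-0.05 ± 0.38, adjusted p = 0.904) and over sorbitol (0.20 ± 0.08, adjusted p = 0.921), because its probe 8604 was blank on 12 h replicates 1 and 2 and on 48 h replicate 2. Its probes disagreed on 12 h replicate 3, where probe 7379 gave 0.93 and probe 8604 gave -2.38. Probe 7379 on its own gave 0.33 at 12 h (adjusted p = 0.441), -0.23 at 24 h (adjusted p = 0.590) and 0.23 at 48 h (adjusted p = 0.531). Probe sequences were not used here, so how far a probe of 1 hexokinase gene also binds RNA of another is unknown for all 8 genes.

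Counted over the genes, 1 hexokinase rose and 2 fell at 12 h of 7 tested, where 5.09% of all features were called higher and 4.07% lower (9.16% in all). At 24 h, 1 rose and 1 fell of 8 tested, where 4.81% of features were called higher and 3.92% lower (8.73% in all). At 48 h, 3 rose and 2 fell of 7 tested, where 12.6% of features were called higher and 13.2% lower (25.8% in all). The median hexokinase mean was 0.22, 0.18 and 0.25 at the 3 times, beside a median over all features of 0.00, 0.00 and 0.01. Between times, none of 7 tested was called for 24 minus 12 h, 48 minus 24 h or 48 minus 12 h, where 0.0%, 0.0% and 0.0061% of features were called. At an unadjusted p under 0.05, 0, 1 and 2 hexokinase genes and 686, 471 and 1648 features passed in these comparisons. Replicate numbers tied the 24 and 48 h arrays together, and the 48 minus 24 h differences had 1 sign in all 3 pairs for 6 of 7 hexokinase genes and for 26% of the 16474 features with 3 pairs. They were above 0 for HXK5 (0.37, 0.55 and 0.37), HXK4 (0.45, 1.72 and 0.57) and HXK4/HXK8 (0.81, 0.08 and 0.05). They were below 0 for HXK2/HXK3 (-0.30, -0.93 and -0.63), HXK2/HXK6 (-0.35, -0.54 and -0.68) and HXK5/HXK9 (-0.06, -1.15 and -0.24). HXK6/HXK7 had 0.20, -0.07 and -1.01. None was called in the paired fit, where the lowest adjusted p of a hexokinase gene was 0.825, for HXK4.

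**Figure D2:**
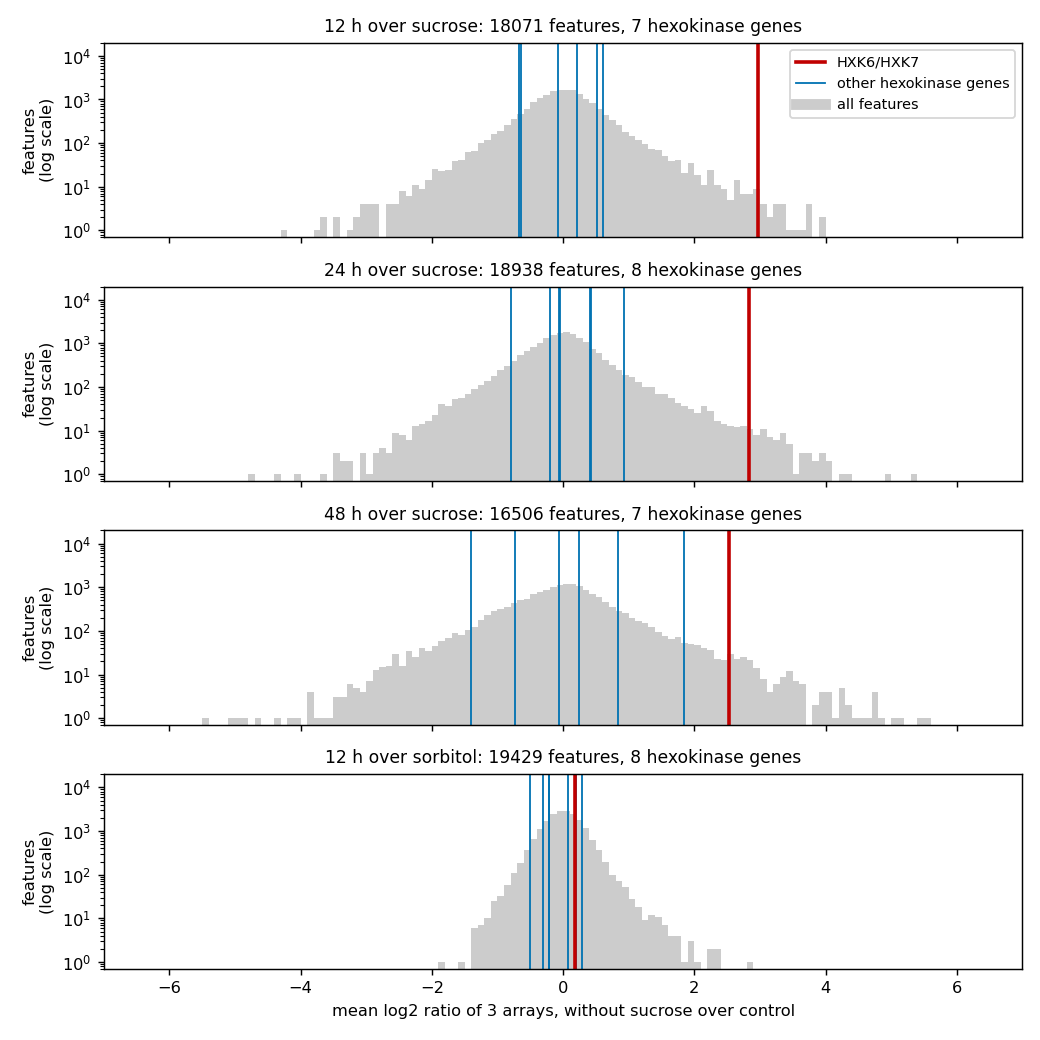
Number of features (y axis, log scale) by the mean log2 ratio of 3 arrays (x axis), 1 panel per group, with vertical lines for the hexokinase genes. HXK6/HXK7 (red) lies far out in the right tail at 12, 24 and 48 h over sucrose, at 2.98, 2.83 and 2.53, and inside the bulk over sorbitol, at 0.18. The other hexokinase genes lie within the bulk at 12 and 24 h and spread out further at 48 h.

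Over sorbitol, none of the 8 hexokinase genes was called, beside 0.0515% of features (10 features, while 1289 had an unadjusted p under 0.05). The lowest adjusted p of a hexokinase gene was 0.845. The fit shares 1 spread over all groups, and ratios on the sorbitol arrays were the least spread. The tests over sucrose used that shared spread too. Without the sorbitol arrays, features called over sucrose numbered 595, 683 and 2578 at 12, 24 and 48 h, against 1655, 1653 and 4252. The calls of HXK2/HXK3 at 12 h (adjusted p = 0.141) and 24 h (adjusted p = 0.0902) were lost there. So were those of HXK2/HXK6 at 12 h (adjusted p = 0.129) and HXK5 at 48 h (adjusted p = 0.102). With the spread of the 3 sorbitol arrays alone, HXK4 (-0.51 ± 0.28, adjusted p = 0.00403) and HXK2/HXK3 were called lower and HXK5 (0.28 ± 0.10, adjusted p = 0.0218) higher, at sizes of at most 1.42-fold. With quantile normalization the called sizes were larger, at -1.03 for HXK4 (adjusted p = 0.0253) and -0.61 for HXK2/HXK3 (adjusted p = 0.0250), and with scale normalization HXK2/HXK3 was called at -0.53 (adjusted p = 0.0437). Calls over sorbitol were common among all features in these settings. Of 19429 tested, 6976 were called with the spread of the sorbitol arrays alone, 3884 with quantile and 2893 with scale normalization. HXK6/HXK7 was called over sorbitol only with array weights, at 0.22 (adjusted p = 0.0429), a setting that called 7965 features there.

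The gap between HXK6/HXK7 and HXK2/HXK3 could be read within each array, where a common shift of all ratios cancels. The gap does not show that the genes moved in opposite directions, because a rise of HXK6/HXK7 alone would also open it. The log2 ratio of HXK6/HXK7 minus that of HXK2/HXK3 was 4.21, 3.07 and 3.67 at 12 h, 3.56, 3.53 and 3.77 at 24 h, and 4.06, 4.39 and 3.38 at 48 h over sucrose. Over sorbitol it was 0.67, 0.52 and 0.28. The means were 3.65 ± 0.57, 3.62 ± 0.13 and 3.94 ± 0.51 over sucrose and 0.49 ± 0.20 over sorbitol. This pair was picked as the extremes of the family, so its gap is given without a test.

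**Figure D3:**
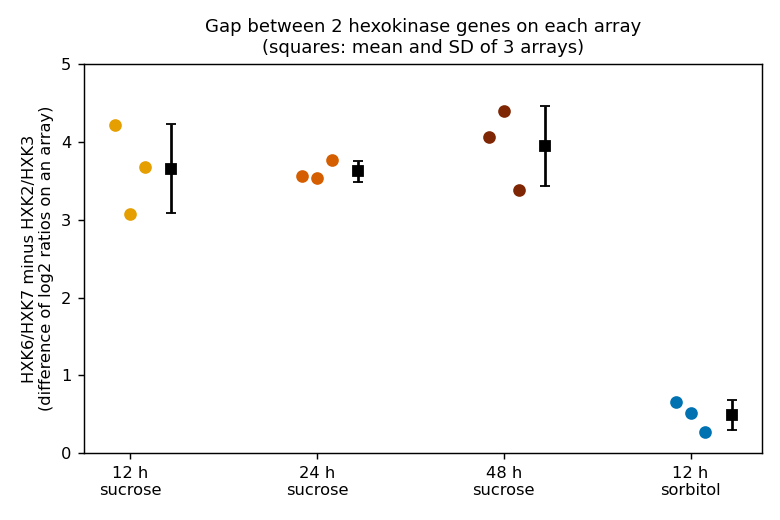
Difference between the log2 ratios of HXK6/HXK7 and HXK2/HXK3 on the same array (y axis) in the 4 groups (x axis). Points are single arrays and squares with bars are the mean and SD of 3 arrays. The gap lies between 3.07 and 4.39 on the sucrose arrays and between 0.28 and 0.67 on the sorbitol arrays.

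Several correlations among the 7 hexokinase genes with a value on every array changed much when 1 array was left out. Over the 9 sucrose arrays, HXK5/HXK9 and HXK2/HXK3 were correlated at r = 0.89, HXK4 and HXK5 at r = 0.60, and HXK4 and HXK2/HXK3 at r = -0.82. The array 48 h replicate 2 was the highest of the 9 for HXK4 and HXK5 and the lowest for HXK2/HXK3 and HXK5/HXK9. Without it, over 8 arrays, these r were 0.57, 0.11 and -0.45. HXK6/HXK7 and HXK5/HXK9 had r = 0.57 over 9 arrays and 0.81 over 8.

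The named genes most like HXK6/HXK7 over the 12 arrays, of 1788 compared, were actin-6, also called ARP8 (r = 0.98), the beta-glucosidase gene BGLU1 (r = 0.96), IVD (r = 0.96), OsSPPL1 (r = 0.95) and OsNrx1-1 (r = 0.93). The r over 12 arrays mostly reflects the step between the sucrose and sorbitol sets. Within the 9 sucrose arrays r was 0.89, 0.78, 0.76, 0.60 and 0.45 in the same order. In size, IVD and actin-6 came close, with a root mean square difference from HXK6/HXK7 of 0.58 and 0.62 log2 units. IVD, a name used for isovaleryl-CoA dehydrogenase of leucine breakdown, had means of 2.78, 2.14 and 1.93 at 12, 24 and 48 h over sucrose and -0.18 over sorbitol, and actin-6 had 2.50, 1.97, 1.90 and -0.14. OsSPPL1 and BGLU1 differed more, by 2.07 and 1.77. OsSPPL1 averaged 0.75, 0.34 and 0.30 over sucrose and -0.63 over sorbitol.

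**Figure D4:**
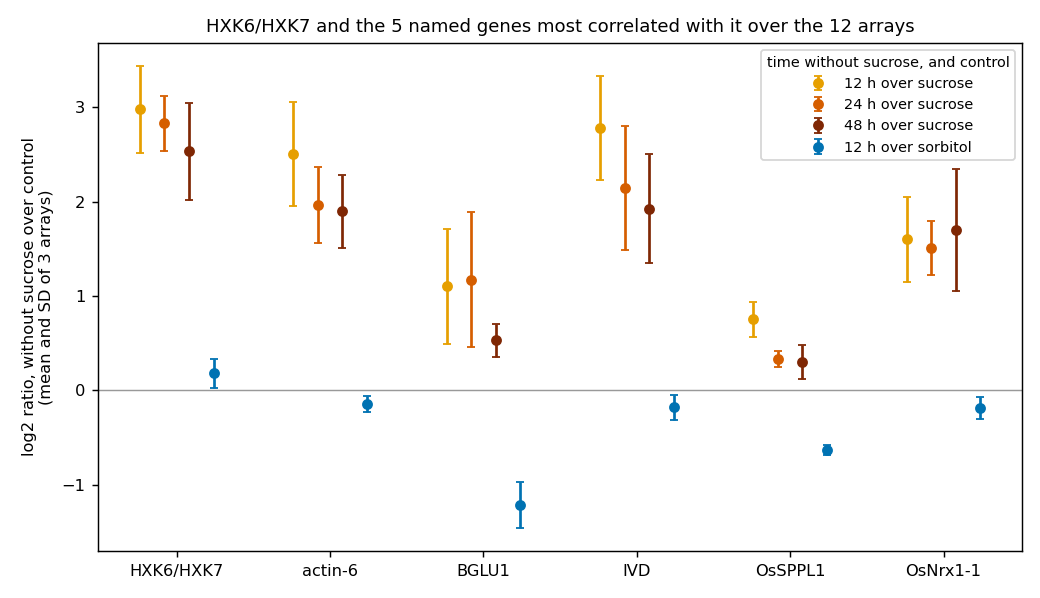
Mean log2 ratio with SD of 3 arrays (y axis) of HXK6/HXK7 and of the 5 named genes with the highest correlation to it over 12 arrays (x axis), in the 4 groups. IVD and actin-6 have sucrose means between 1.90 and 2.78, near those of HXK6/HXK7, while BGLU1 and OsSPPL1 follow the same step from a lower position, with sorbitol means of -1.21 and -0.63.

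The most similar named gene of each other hexokinase gene, again over 12 arrays, was MSH5 for HXK2/HXK3 (r = 0.95), CML8 for HXK4 (r = 0.96), JAZ11 for HXK5 (r = 0.94), PRXIIF for HXK5/HXK9 (r = 0.90), STT3-B for HXK4/HXK8 (r = 0.88) and ITPase for HXK2/HXK6 (r = 0.81).

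Genes of neighbouring steps were set beside the hexokinases. Fructokinases phosphorylate fructose alone, and of 2 measured, FKI was lower at 12 h (-1.44 ± 1.14, adjusted p = 0.0296) and 24 h (-1.62 ± 0.54, adjusted p = 0.0186) and had -0.85 ± 0.71 at 48 h (adjusted p = 0.105). Without 12 h replicate 1 the 12 h value of FKI was -0.89, and its calls were also lost without 12 h replicate 2, 24 h replicate 1 or 24 h replicate 2. FKII was not called at any time. HXK6/HXK7 and FKI thus had means of opposite sign at each time over sucrose.

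Genes of glycolysis downstream of the hexose phosphate made by hexokinases were called in 1 direction. Of 12 genes of glycolysis after hexose phosphate, 3 were called lower at 12 h, 6 at 24 h and 10 at 48 h, and none higher, beside 4.07%, 3.92% and 13.2% of all features called lower. Their median was -0.64, -1.03 and -2.23, and -0.33 over sorbitol, where none was called. The member farthest from 0 was GAPC2, a cytosolic glyceraldehyde-3-phosphate dehydrogenase, at -1.92 ± 0.59, -2.57 ± 0.66 and -3.12 ± 0.40. The genes called at all 3 times were GAPC2, the enolase gene AD709 (also Eno1) and OsPK1, a pyruvate kinase.

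Upstream, genes for sugar carriers and sucrose cleavage went both ways. Of 17 carrier genes, 5 were higher and 2 lower of 14 tested at 12 h and again at 24 h, and 5 higher and 1 lower of 11 tested at 48 h. Of all features, 5.09%, 4.81% and 12.6% were called higher and 4.07%, 3.92% and 13.2% lower at these times. OsSWEET1b, of a family of sugar exporters and importers, had 3.95 ± 0.72, 5.37 ± 0.94 and 5.18 ± 2.29 over sucrose, above HXK6/HXK7 in ratio at each time. Of 11 genes for sucrose synthases and invertases, 1 was higher and 1 lower of 9 tested at 12 h, 1 lower of 9 at 24 h, and 1 higher and 2 lower of 7 at 48 h, counts to be read against the same shares. OsSUS1, a sucrose synthase, had -2.05 ± 0.84, -2.23 ± 0.34 and -3.31 ± 0.42. None of these carriers and enzymes was called over sorbitol. With the spread of the sorbitol arrays alone, FKI (-0.93), GAPC2 (-0.78) and OsSWEET1b (-0.78) were called lower there, among 6976 features called of 19429 tested.

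In the list of trehalose phosphatases and of SnRK1 kinases with their MYB regulators, which act in sugar signalling, 4 of 10 were higher at 12 h, 3 at 24 h and 3 at 48 h, and 1 was lower at 48 h, beside 5.09%, 4.81% and 12.6% of all features called higher and 13.2% lower at 48 h. MYBS1, a MYB factor of the sugar response of alpha-amylase genes, had 1.59 ± 0.39, 1.90 ± 1.02 and 1.79 ± 0.72, and 0.07 ± 0.02 over sorbitol. Its call was lost without 12 h replicate 1 or 2 at 12 h and without 24 h replicate 1 at 24 h.

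**Figure D5:**
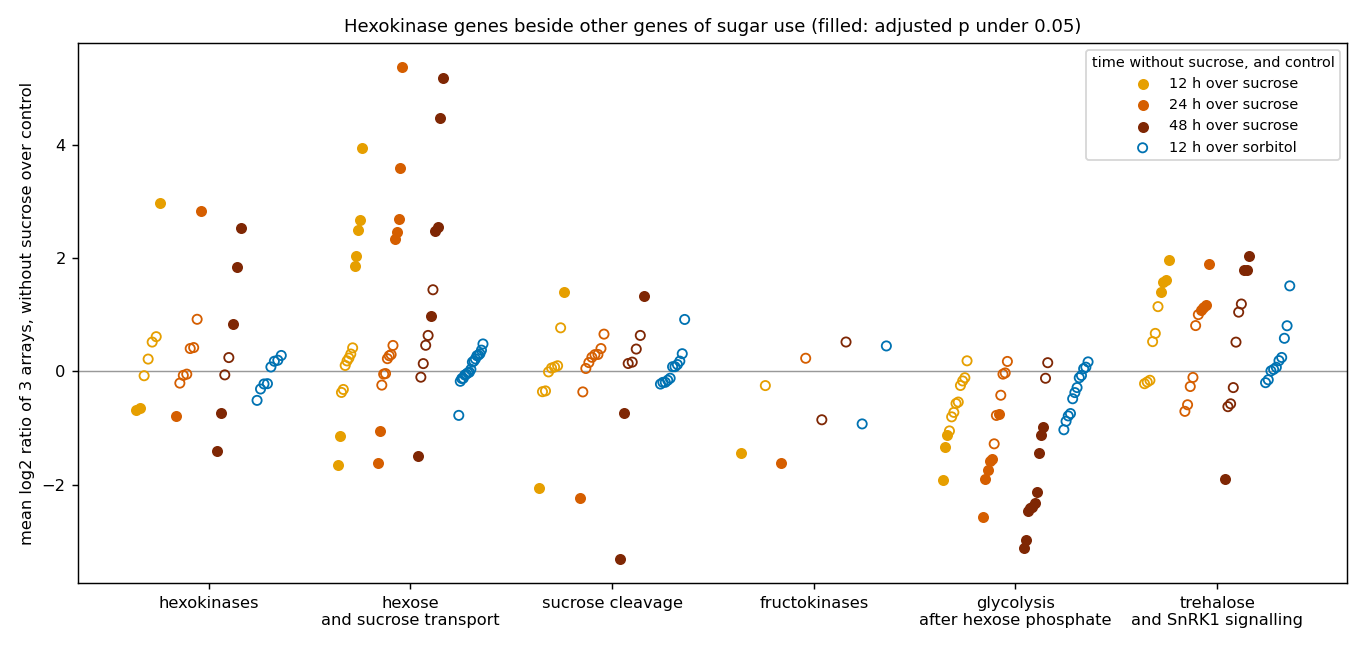
Mean log2 ratio of 3 arrays (y axis) of each hexokinase gene and of each gene in 5 lists of neighbouring steps (x axis), in the 4 groups by colour. Each point is 1 gene, filled where its adjusted p was under 0.05. Glycolysis genes go down to -3.12 at 48 h with none called higher, HXK6/HXK7 is the highest hexokinase point in each sucrose group, and no point of the sorbitol group is filled.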

How the data were processed

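Dual-channel Agilent arrays were used, per the labels. The deposited table holds 21495 probes on 12 arrays, and its numbers were read as natural log ratios: in the column of 12 h replicate 1, 316 of them undo to a ratio of 1 decimal under the natural log (within 1e-05), 79 under log2 and 83 under log10. This settled 6 of 12 columns, none of them of the sorbitol group, and the others were taken to share the scale, so the size of every sorbitol ratio rests on that. Ratios were read as Cy5 over Cy3 from the dye labels and turned to log2. Background correction, normalization, centring and software are not given in the sources used here. Column medians of log2 lay between -0.03 and 0.11. Scanner intensities were not used, and the number of arrays limits the precision.

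Probes were named through GEO's annotation of the array and RefSeq's gene table (assembly ASM3414082v1): 17839 probes had 1 gene, 21 several and 3635 none. No coordinates or sequences were used. Probes of a gene were averaged on arrays where all had a value, giving 19454 features, and blanks stayed blank. Testing a feature required values on each array of the groups at hand. Tests used limma 3.58.1 in R 4.3.3 (lmFit, eBayes), with 1 coefficient per group, all 12 arrays sharing a spread, two-sided, and p-values were adjusted by Benjamini-Hochberg across all features of each comparison (threshold 0.05). Fits were tested on simulated data. Tables were made with Python 3.11.15, pandas 2.3.3 and scipy 1.17.1.

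The 4 group means and 6 differences between groups were tested. Deviations from group means of same-numbered arrays at 24 and 48 h correlated at 0.567, 0.446 and 0.497, so the numbers were taken to pair those arrays. In no other pair of groups did all 3 exceed 0.1. The 12 h arrays over sucrose had ties too. Replicate 3 at 12 h correlated with replicate 3 at 24 h (0.447) and 48 h (0.461). The closest array to 12 h replicate 2 was 24 h replicate 1 (0.525), and to 12 h replicate 1 it was 24 h replicate 2 (0.399). A block by number does not follow the last 2 ties, and the main fit took all arrays as independent. A fit with the replicate number as a block was an alternative, as were other normalizations, spreads, probe rules and arrays left out. The members, the gene lists and the tests were chosen with earlier results of these data known. Genes are named by a rule: all hexokinase genes, the 5 named genes most correlated with HXK6/HXK7 and 1 for each other member, RAmy3D and RAmy3E, and the member of each list farthest from 0 in its mean over the sucrose arrays if called. FKII, AD709 and OsPK1 were named after their values were seen. Of the list genes, 6 were left out because their match came from a shared synonym.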

Additional observations from a re-analysis of the deposited data

Results flagged for a closer look

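The ratio of HXK6/HXK7 differed between the 12 h groups, being higher over sucrose than over sorbitol by 2.80 on the log2 scale (2.98 over sucrose, 0.18 over sorbitol, 3 arrays each, adjusted p = 0.00288). The difference itself was tested in the limma fit. It equals sorbitol over sucrose only if the cells without sucrose of both sets were alike, which was not tested.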

How the results depend on the processing

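The rises of HXK6/HXK7 at 12, 24 and 48 h and the fall of HXK2/HXK3 at 48 h kept their direction and call in all 24 other settings each (HXK6/HXK7 2.48 to 3.24, 2.45 to 2.99 and 1.90 to 2.77). The differences of HXK6/HXK7 from the sorbitol group (2.80, 2.65 and 2.35) missed the threshold only with the trended, robust spread. Its sorbitol mean was called with array weights (0.22). Its 24 minus 12 h difference, never called, turned to 0.093 with array weights and 0.16 with scale normalization, and ran from -0.41 to 0.017 with an array left out, and that of 48 minus 24 h turned to 0.064 without the arrays numbered 3, a setting chosen after seeing the data (-0.57 to -0.064 with an array left out, -0.63 with scale and -0.56 with quantile normalization). That of 48 minus 12 h ran from -0.94 to -0.11 over all settings. Among values not called, HXK5/HXK9 at 48 h turned to 0.11 with array weights and to 0.041 and 0.043 with scale and quantile normalization (-0.29 to 0.29 with an array left out), HXK3/HXK8 at 24 h to 0.036, 0.0024 and 0.0051 under the same 3 settings (-0.19 to 0.17), HXK4/HXK8 at 12 h to 0.048 with array weights and 0.12 without the arrays numbered 3 (-0.18 to 0.12; -0.14 to 0.024 at 24 h, -0.03 to 0.45 at 48 h), and HXK5 at 24 h to -0.10 with array weights. The cause was not tested.

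Hexokinase genes called lower at 12 h numbered 2, but 0 with only the compared arrays, without the sorbitol arrays, with the replicate block, with the trended spread or without the arrays numbered 3, and 1 with array weights, scale or quantile normalization or single probes (0 to 2 with an array left out). At 24 h 1 was lower, but 0 with only the compared arrays, without sorbitol, with the trended spread or without the arrays numbered 3 (0 to 1), and 3 were higher with array weights. Array weights called 6401 of 18938 features at 24 h. At 48 h 3 were higher and 2 lower, but 1 higher and 1 lower with only the compared arrays or array weights, 2 higher without sorbitol, with median centring, scale or quantile normalization, single probes or at least 2 values, and 2 higher and 1 lower without the arrays numbered 3 (1 to 3 higher, 1 to 2 lower with an array left out). At 12 h, 1 to 2 were higher with an array left out. Over sorbitol 1 was higher and 2 lower with only those arrays, 3 and 3 with array weights, 1 lower with scale and 2 with quantile normalization. In that order these settings called 6976, 7965, 2893 and 3884 of 19429 features. For 12 h over sucrose minus sorbitol, 2 were higher with quantile normalization and 0 with the trended spread, beside 2142 and 70 features called. The replicate block moved no hexokinase call in the 48 minus 24 h comparison: on those arrays alone HXK6/HXK7 was -0.29 and 1 feature was called, against 0. Between the other groups the numbers did not pair all 3 arrays, though replicate 3 at 12 h went with replicate 3 at 24 and 48 h. The excess of HXK4 at 48 h over the sorbitol group passed with the block (adjusted p = 0.0303), as under 4 other settings.

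Features called ran from 383 to 2172 at 12 h (reported: 1655), 369 to 6401 at 24 h (1653), 918 to 4851 at 48 h (4252), 0 to 7965 over sorbitol (10), 23 to 2142 for 12 h over sucrose minus sorbitol (266) and 0 to 23 for 48 minus 12 h (1). Signal over background is unknown for every probe.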
